A study of Mus musculus with 6 samples.

Results

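The 40 genes described here were chosen by name as genes of myelin and of the mature oligodendrocyte, the cell that wraps axons of the central nervous system. Of the 40, 39 had a row in the deposited expression table of 18614 genes, and all 39 were among the 15126 genes with enough reads to test. Anln2 matched no gene, and Sept4 carries the current symbol Septin4. Bulk RNA-seq had been done on mouse subventricular zone (SVZ), a layer of neural stem cells and their progeny that lines the lateral ventricle, in 3 wild-type libraries (Zhx2+/+, called WT 1 to WT 3) and 3 libraries labelled as homozygous for a Zhx2 deletion (Zhx2 Δ/Δ, called KO 1 to KO 3). Zhx2 encodes a zinc finger and homeobox protein that acts as a transcriptional repressor. The genotype tags read ZHX2 KO for KO 1, ZHX3 KO for KO 2 and ZHX4 KO for KO 3, while the titles of all 3 name Zhx2. No treatment, time point, age or sex is given, and the labels do not say how far the deletion reaches or whether each library is from its own animal. Each p below therefore gauges a difference against library-to-library spread alone, and that spread may be technical.

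The labels were checked first at the targeted gene. Zhx2 had 735, 675 and 659 estimated counts in WT 1, 2 and 3 and 1139, 1004 and 959 in KO 1, 2 and 3, so the libraries labelled KO had more reads of the gene than WT, not fewer (log2 fold change 0.61, SE 0.10, edgeR adjusted p = 0.163). Gene totals cannot show whether a part of the gene is missing, so KO is used below as the name on the label only. Total estimated counts ran from 17037152 to 17685906 per library. The libraries also differed in genes of the choroid plexus, the tissue that makes cerebrospinal fluid, 13 of which summed to 22962, 17930.3 and 5374 CPM in WT 1, 2 and 3 and 473, 523 and 324 CPM in KO 1, 2 and 3. Enpp2, which is among the 13 and which mature oligodendrocytes also make, held 427, 329 and 241 CPM of these KO sums. Levels below are counts scaled to library size (CPM) with TMM scaling, a library-size correction. A count of 3, the most that a reading of 0 allows, is 0.170 to 0.176 CPM, and the fewest counts of any member in any library were 134. These limits cover counting error only.

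Oligodendrocytes arise from precursor cells, pass through a committed and newly formed stage and then make myelin, a stack of compacted membrane. Sox10 and Olig1 are transcription factors of the lineage, and Myrf is the factor that switches on myelin genes when the cell matures. Structural proteins such as Mbp glue the membrane layers together, enzymes such as Ugt8a and Fa2h make the galactolipids of the sheath, and connexins join the sheath to itself and to astrocytes. In the SVZ of the mouse the corpus callosum lies above the ventricle and the striatum beside it, and both hold myelinated fibres, so dissected SVZ tissue can carry white matter.

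Start-site sequences are shown for members whose levels moved together over the libraries, with Nfasc, a member that did not share that pattern, for comparison. Each runs 5′ to 3′ on the gene's own strand, from 250 bases before to 50 bases after the start in RefSeq's annotation of GRCm38.p6. The table of start sites held 44 windows for 29 of the 39 members. It held none for Mbp, Myrf, Fa2h, Trf, Car2, Cryab, Sox10, Olig1, Bcas1 and Evi2a. Capitals mark matches, on either strand, to short letter strings that resemble the sites of factors among the members. A first string of the SOX type was ACAAAG. A second string of the SOX type was AACAAT. For Myrf one form searched was CTGGCAC. The other form searched for Myrf was CTGGTAC. No match overlapped another in the windows shown.
Mag, chr7:30914814-30915113, minus strand: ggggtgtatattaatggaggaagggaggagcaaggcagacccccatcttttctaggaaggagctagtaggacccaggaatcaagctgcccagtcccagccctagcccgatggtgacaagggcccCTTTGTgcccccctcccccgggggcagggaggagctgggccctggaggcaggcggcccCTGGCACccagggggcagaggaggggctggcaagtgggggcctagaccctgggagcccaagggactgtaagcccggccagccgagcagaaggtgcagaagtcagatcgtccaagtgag
Cnp, chr11:100574689-100574988, plus strand: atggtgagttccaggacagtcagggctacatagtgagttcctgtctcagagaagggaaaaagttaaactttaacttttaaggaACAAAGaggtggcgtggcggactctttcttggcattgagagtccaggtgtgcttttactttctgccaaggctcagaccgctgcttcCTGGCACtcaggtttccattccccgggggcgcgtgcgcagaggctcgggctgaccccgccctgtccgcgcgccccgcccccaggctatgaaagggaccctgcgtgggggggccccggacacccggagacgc
Opalin, chr19:41077064-41077363, minus strand: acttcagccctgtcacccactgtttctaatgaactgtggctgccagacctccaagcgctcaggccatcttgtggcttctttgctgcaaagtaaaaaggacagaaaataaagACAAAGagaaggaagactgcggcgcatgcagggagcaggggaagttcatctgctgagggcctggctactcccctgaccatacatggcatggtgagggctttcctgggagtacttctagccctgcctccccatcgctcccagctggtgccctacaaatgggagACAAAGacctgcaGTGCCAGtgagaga
Mobp, chr9:120149492-120149791, plus strand: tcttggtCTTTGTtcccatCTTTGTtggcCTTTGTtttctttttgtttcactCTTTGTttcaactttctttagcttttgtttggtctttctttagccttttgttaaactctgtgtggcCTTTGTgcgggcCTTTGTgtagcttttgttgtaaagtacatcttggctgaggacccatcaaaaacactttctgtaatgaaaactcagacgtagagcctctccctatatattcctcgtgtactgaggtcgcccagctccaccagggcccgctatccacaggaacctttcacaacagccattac
Mog, chr17:37023349-37023648, minus strand: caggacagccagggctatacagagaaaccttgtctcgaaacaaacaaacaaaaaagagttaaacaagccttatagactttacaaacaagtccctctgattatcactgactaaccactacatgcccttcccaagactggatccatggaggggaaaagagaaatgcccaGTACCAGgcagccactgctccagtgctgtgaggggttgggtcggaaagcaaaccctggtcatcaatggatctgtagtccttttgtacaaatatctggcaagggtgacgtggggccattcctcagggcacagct
Nfasc, chr1:132707277-132707576, minus strand: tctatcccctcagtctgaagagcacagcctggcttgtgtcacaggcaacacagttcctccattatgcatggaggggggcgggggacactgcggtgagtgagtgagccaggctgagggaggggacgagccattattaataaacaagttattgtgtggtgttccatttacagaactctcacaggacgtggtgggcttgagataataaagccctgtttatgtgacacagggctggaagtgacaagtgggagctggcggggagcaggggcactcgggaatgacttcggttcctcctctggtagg
The windows of Mag, Cnp and Opalin held both the first SOX string and the first Myrf form, Mobp held 6 matches of the first SOX string, Mog held the second Myrf form and Nfasc held no match. Klk6 and Tmem125, which like Nfasc did not have KO 1 highest, did have matches in windows not shown. Klk6 had both SOX strings and Tmem125 the first Myrf form, so matches were not limited to members that moved together. The first SOX string was present in 13 of 44 member windows (29.5%) against 18.7% of all 32851 windows, and the second in 8 (18.2%) against 10.7%. The first Myrf form was present in 7 member windows (15.9%), in Cnp, Hapln2, Lpar1, Mag, Opalin and Tmem125, against 5.01% of all windows. The second was present in 1 (2.27%) against 2.24%. These are matches of letters and not measured binding, and several members had more than 1 window.

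Together the members held 16392, 15922 and 15643 CPM in WT 1, 2 and 3 and 22017, 13725 and 9848 CPM in KO 1, 2 and 3. The 3 WT libraries lay within a narrow band, while KO 1 stood above all of them and KO 2 and KO 3 stood below. The mean was 15986 ± 379 CPM (SD, n = 3) in WT and 15197 ± 6216 CPM (SD, n = 3) in KO, a ratio of 0.951, so the group means were close and the libraries of the KO group were spread widely around theirs. KO 1 had 1.87 times the mean of KO 2 and KO 3. Mbp alone made up between 39.9% and 45.2% of the sum, and without Mbp that ratio was 1.74. In a bulk library fewer oligodendrocytes and less RNA per oligodendrocyte cannot be told apart. The contrast of KO 1 with the other two is a description with no test, since it was chosen with earlier results of these data known.

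The same order held gene by gene. KO 1 was above every WT library for 36 of 39 members, against 27.9% of all genes tested. KO 2 was below every WT library for 29 members (28.1% of all genes) and KO 3 for 37 (22.4% of all genes). For 33 members KO 1 was the highest and KO 3 the lowest of the 6 libraries, an order that 3.03% of all genes tested had. For 28 members KO 1 was above and both KO 2 and KO 3 below every WT library, against 1.72% of all genes. The median member was 0.39 higher in KO 1 than the WT mean on the log2 scale, 0.20 lower in KO 2 (−0.20) and 0.63 lower in KO 3 (−0.63). The highest KO library held a median of 2.00 times the lowest, against 1.12 times within WT. Over the 10721 genes at least as abundant as the least abundant member, these medians were 1.22 in KO and 1.23 in WT.

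**Figure D1:**
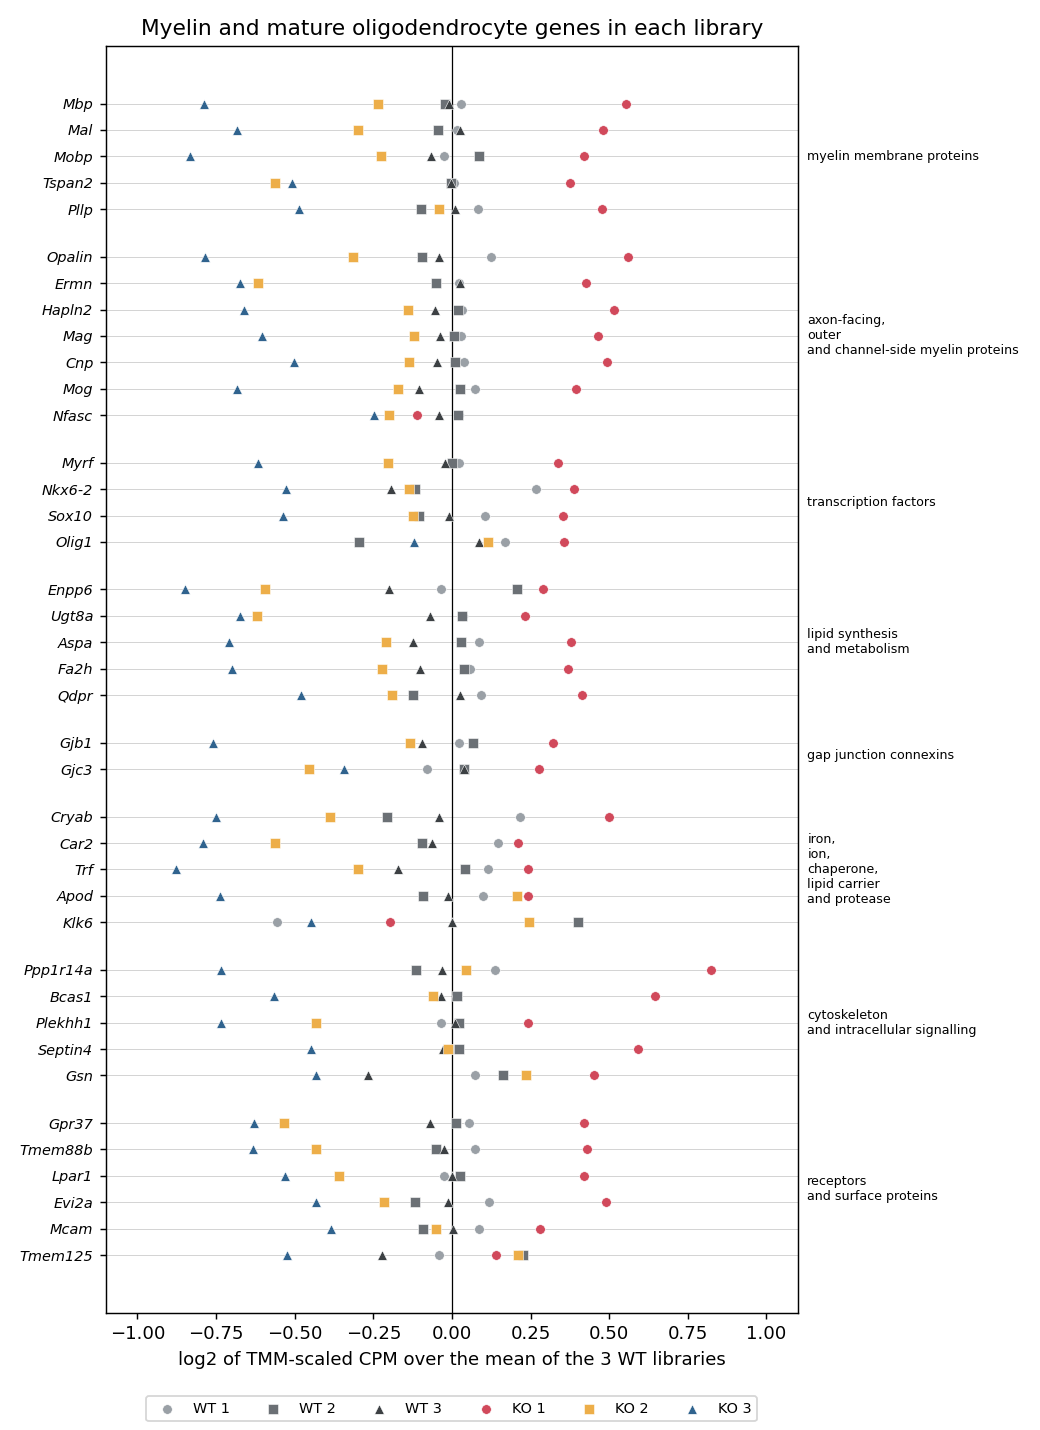
Level of each of the 39 members in each of the 6 libraries, as log2 of TMM-scaled CPM over the mean of the 3 WT libraries (horizontal axis; 0 is the WT mean), grouped by role. KO 1 is the rightmost point for 36 members and KO 3 the leftmost for 35, and Nfasc, Klk6 and Tmem125 are the members without KO 1 at the right.

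Among the membrane proteins of the sheath, Mbp, the basic protein that holds the inner faces of the membrane together, was the most abundant member. Mbp had 6916, 6681 and 6734 CPM in WT 1, 2 and 3 and 9953, 5752 and 3928 CPM in KO 1, 2 and 3. KO 1 was above and KO 2 and KO 3 were below every WT library, and the log2 fold change of KO over WT was −0.05 (SE 0.32, edgeR adjusted p = 0.976). Mobp, a second basic protein of compact myelin, had 2111, 2278 and 2050.5 CPM in WT 1, 2 and 3 and 2868, 1838 and 1206 CPM in KO 1, 2 and 3. Most of these counts were assigned to predicted non-coding models, with 67.7% to 71.5% in WT for XR_379851.1 and 15.4% to 18.0% for XR_871174.1. The transcript NM_001039364.2 held 10.6% to 11.7% in WT. Mal, a lipid-raft protein of the myelin membrane, had 567, 545 and 571 CPM in WT 1, 2 and 3 and 782, 456 and 349.6 CPM in KO 1, 2 and 3. For both genes KO 1 was above and KO 2 and KO 3 were below WT, as for Mbp. Tspan2, a tetraspanin of the sheath, had 258, 257 and 256 CPM in WT 1, 2 and 3 and 334, 174 and 181 CPM in KO 1, 2 and 3, so KO 2 and KO 3 were nearly level. Pllp, plasmolipin, had 139, 123 and 132 CPM in WT 1, 2 and 3 and 183, 128 and 93.8 CPM in KO 1, 2 and 3, and its KO 2 value lay within the WT range. The KO 1 level was between 1.65 and 2.06 times the mean of KO 2 and KO 3 over these 5 genes.

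Mag and Mog sit on the inner and outer faces of the sheath: Mag, a sialic-acid-binding adhesion protein, faces the axon, and Mog, an immunoglobulin-like protein, lies on the outermost layer. Mag had 396, 390.0 and 378 CPM in WT 1, 2 and 3 and 535, 357 and 255 CPM in KO 1, 2 and 3 (log2 fold change −0.02, SE 0.26, edgeR adjusted p = 0.987). Mog had 136, 132 and 121 CPM in WT 1, 2 and 3 and 170.4, 115 and 80.7 CPM in KO 1, 2 and 3 (log2 fold change −0.09, SE 0.26, edgeR adjusted p = 0.940). Within each, the 3 WT libraries lay close together and the KO libraries lay on both sides of them. Cnp, the cyclic nucleotide phosphodiesterase that keeps channels of cytoplasm open in myelin, had 647, 634 and 609.8 CPM in WT 1, 2 and 3 and 888, 573 and 445 CPM in KO 1, 2 and 3. Opalin, a glycoprotein of late oligodendrocytes, had 49.9, 42.9 and 44.5 CPM in WT 1, 2 and 3 and 67.5, 36.9 and 26.6 CPM in KO 1, 2 and 3 (log2 fold change −0.07, SE 0.33, edgeR adjusted p = 0.969). Opalin had one of the widest gaps, with KO 1 at 2.13 times the mean of KO 2 and KO 3. Ermn, an actin-associated protein of late oligodendrocytes, had 160.5, 152 and 161 CPM in WT 1, 2 and 3 and 212, 103 and 99.1 CPM in KO 1, 2 and 3 (log2 fold change −0.19, SE 0.30, edgeR adjusted p = 0.871). Hapln2, a link protein of the matrix at the nodes of Ranvier, had 84.0, 83.2 and 79.1 CPM in WT 1, 2 and 3 and 117, 74.6 and 52.0 CPM in KO 1, 2 and 3. For these last 2 genes KO 1 was again the highest and KO 3 the lowest library.

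The transcription factors had KO 1 at 1.28 to 1.66 times the mean of KO 2 and KO 3. Myrf had 185, 182 and 179 CPM in WT 1, 2 and 3 and 230.0, 158 and 119 CPM in KO 1, 2 and 3. Sox10 had 137, 118 and 126 CPM in WT 1, 2 and 3 and 162, 117 and 87.5 CPM in KO 1, 2 and 3. KO 1 was 1.66 times the mean of KO 2 and KO 3 for Myrf and 1.59 times for Sox10, less than for Mbp. Olig1, which is also made by precursors, had 236, 171 and 223 CPM in WT 1, 2 and 3 and 269, 227 and 193 CPM in KO 1, 2 and 3, and its KO 2 and KO 3 values lay inside the WT range. Nkx6-2, a homeobox factor of maturing oligodendrocytes, was between 15.0 and 20.6 CPM in WT and between 11.9 and 22.4 CPM in the KO libraries.

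Enzymes of sheath lipids and related metabolism were below every WT library in both KO 2 and KO 3. Ugt8a, which makes galactosylceramide, had 109, 109 and 102 CPM in WT 1, 2 and 3 and 126, 69.5 and 67.0 CPM in KO 1, 2 and 3 (log2 fold change −0.29, SE 0.25, edgeR adjusted p = 0.758). Fa2h, which hydroxylates the fatty acids of these lipids, had 147, 145 and 132 CPM in WT 1, 2 and 3 and 183, 121 and 87.1 CPM in KO 1, 2 and 3. Qdpr, which recycles tetrahydrobiopterin, had 231, 198 and 220.1 CPM in WT 1, 2 and 3 and 288, 189.5 and 155 CPM in KO 1, 2 and 3. In all 3 of them KO 2 and KO 3 were below every WT library and KO 1 was above. Aspa, which releases acetate from N-acetylaspartate, was between 27.7 and 32.1 CPM in WT and between 18.5 and 39.3 CPM in the KO libraries. Enpp6, a choline phosphodiesterase best known from newly forming oligodendrocytes, was between 16.6 and 21.97 CPM in WT and between 10.6 and 23.3 CPM in the KO libraries, with the KO 1 value 2.01 times the mean of the other two. KO 1 was thus also its highest library and KO 3 its lowest.

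Gjc3, the connexin 29 gene, had 124, 135 and 135 CPM in WT 1, 2 and 3 and 159.5, 96.1 and 104 CPM in KO 1, 2 and 3, and Gjb1, the connexin 32 gene, was between 37.3 and 41.8 CPM in WT and between 23.6 and 49.8 CPM in the KO libraries. For both connexins KO 1 was above and KO 2 and KO 3 below every WT library.

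The genes for iron, ion and lipid handling were less uniform. Trf, transferrin, which carries iron, had 766, 728 and 628 CPM in WT 1, 2 and 3 and 836, 575 and 385 CPM in KO 1, 2 and 3. Car2, carbonic anhydrase of the oligodendrocyte, had 365, 308 and 315 CPM in WT 1, 2 and 3 and 381, 223 and 190.2 CPM in KO 1, 2 and 3 (log2 fold change −0.31, SE 0.26, edgeR adjusted p = 0.754), the lowest fold change among the members. Cryab, a small heat-shock protein, had 233, 174 and 195 CPM in WT 1, 2 and 3 and 283, 153 and 119 CPM in KO 1, 2 and 3. In these 3 genes KO 1 was above WT, KO 2 below it and KO 3 lowest. Apod, a lipid carrier that other glia and vessel-associated cells also make, had 403, 354 and 374 CPM in WT 1, 2 and 3 and 445, 435 and 226 CPM in KO 1, 2 and 3, with KO 2 close to KO 1 and only KO 3 below WT. Klk6, a secreted protease of a subset of mature oligodendrocytes, had 7.31, 14.2 and 10.7 CPM in WT 1, 2 and 3 and 9.37, 12.7 and 7.87 CPM in KO 1, 2 and 3 (log2 fold change −0.10, SE 0.29, edgeR adjusted p = 0.938). WT 1 was the lowest and WT 2 the highest library for Klk6, so its WT libraries were as far apart as the KO libraries of other members.

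Among the cytoskeletal and signalling genes, Bcas1, a marker of early myelinating oligodendrocytes, had 405, 405 and 391 CPM in WT 1, 2 and 3 and 626, 384 and 271 CPM in KO 1, 2 and 3. Septin4, which helps form the septin filaments that scaffold myelin, had 262, 265 and 256 CPM in WT 1, 2 and 3 and 393, 258 and 191 CPM in KO 1, 2 and 3. Ppp1r14a, an inhibitor of myosin phosphatase, had 20.7, 17.4 and 18.4 CPM in WT 1, 2 and 3 and 33.4, 19.5 and 11.3 CPM in KO 1, 2 and 3 (log2 fold change 0.18, SE 0.37, edgeR adjusted p = 0.907). In these 3 genes KO 1 stood far above WT while KO 2 stayed near or inside the WT range and KO 3 was below it. Ppp1r14a had the largest ratio of all members, with KO 1 at 2.17 times the mean of KO 2 and KO 3. Plekhh1 had 99.8, 104 and 103 CPM in WT 1, 2 and 3 and 121, 75.8 and 61.5 CPM in KO 1, 2 and 3. Gsn, gelsolin, which severs actin filaments, had 148, 158 and 117 CPM in WT 1, 2 and 3 and 193, 166 and 104 CPM in KO 1, 2 and 3, and its KO 2 value was above every WT library.

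Receptors and surface proteins completed the set. Gpr37, a G-protein-coupled receptor of the oligodendrocyte, had 151, 147 and 139 CPM in WT 1, 2 and 3 and 195, 101 and 94.1 CPM in KO 1, 2 and 3. Lpar1, a lysophosphatidic acid receptor, had 65.0, 67.2 and 66.1 CPM in WT 1, 2 and 3 and 88.5, 51.5 and 45.8 CPM in KO 1, 2 and 3. Tmem88b had 160.3, 147 and 149.7 CPM in WT 1, 2 and 3 and 205, 113 and 98.3 CPM in KO 1, 2 and 3. In each of these genes KO 2 and KO 3 were both below WT. Evi2a had 62.5, 53.0 and 57.0 CPM in WT 1, 2 and 3 and 80.8, 49.5 and 42.6 CPM in KO 1, 2 and 3, with the same order. Mcam, an adhesion protein that vessel cells make as well, was between 37.4 and 42.3 CPM in WT and between 30.5 and 48.4 CPM in the KO libraries. Tmem125 had 11.9, 14.3 and 10.5 CPM in WT 1, 2 and 3 and 13.5, 14.2 and 8.51 CPM in KO 1, 2 and 3 (log2 fold change −0.02, SE 0.23, edgeR adjusted p = 0.986), with KO 1 and KO 2 inside the WT range.

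Nfasc was the one member whose groups did not overlap, against 16.7% of all genes tested. It encodes neurofascin, whose glial form sits where the sheath attaches beside the node and whose neuronal form sits at the node and the axon initial segment. Nfasc had 443, 442 and 423 CPM in WT 1, 2 and 3 and 403, 379 and 367 CPM in KO 1, 2 and 3. All 3 KO libraries were below all 3 WT libraries, with a log2 fold change of −0.19 (SE 0.10, edgeR unadjusted p = 0.102, adjusted p = 0.630), so the difference did not pass the test. KO 1 had only 1.08 times the mean of KO 2 and KO 3, close to the 0.994 of the median gene.

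Levels per transcript length (the authors' FPKM, fragments scaled to transcript length and library size, summed here over each gene's transcripts) put the members in order. In WT Mbp had 3392 ± 176 FPKM (SD, n = 3), Mobp 831 ± 36.4, Trf 307 ± 36.4 and Cnp 265 ± 14.6 FPKM. Mag had 159 ± 7.50 and Mog 79.0 ± 6.37 FPKM, while the factor Myrf had 32.5 ± 1.42 FPKM. Mag, Septin4 (159 ± 4.66 FPKM) and Qdpr (159 ± 17.03 FPKM) did not differ beyond their spread. The least abundant members were Klk6 at 8.30 ± 2.48, Tmem125 at 7.18 ± 1.05 and Enpp6 at 5.98 ± 0.979 FPKM, each within 2 SD of the next.

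In the test of KO against WT no member passed the threshold. The edgeR quasi-likelihood test with Benjamini-Hochberg adjustment over all 15126 genes called 0 members and 0 genes at an adjusted p of 0.05 (0% called). At an unadjusted p of 0.05 it had 0 members against 1372 genes (9.07%). DESeq2 called 311 genes (2.06%) and 0 members, and limma-voom called 0 genes (0%). The members' log2 fold changes ran from −0.31 to 0.18 with SEs from 0.10 to 0.37, 31 were below 0 and 8 above, and adjusted p ran from 0.630 to 0.997. Their median was −0.09, beside 0.02 for all genes. The spread among the KO libraries sets the width of these errors, so the fit cannot show that the members were alike in the groups.

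Without KO 1, 38 of 39 members were lower in the 2 remaining KO libraries than in WT, with a median log2 fold change of −0.40. Since KO 1 was the library seen to be high, this is a description, and counts of small p-values would restate it. No member passed the adjusted test (0% of 15336 genes called, lowest adjusted p among members 0.449). KO 1 alone against the 3 WT libraries had 37 members higher, with a median of 0.40. None passed the adjusted test (0% of 15589 genes called, lowest adjusted p among members 0.827). That fit assumes that the lone library varies as the WT libraries do. The sign of the group difference thus depended on which KO libraries entered.

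**Figure D2:**
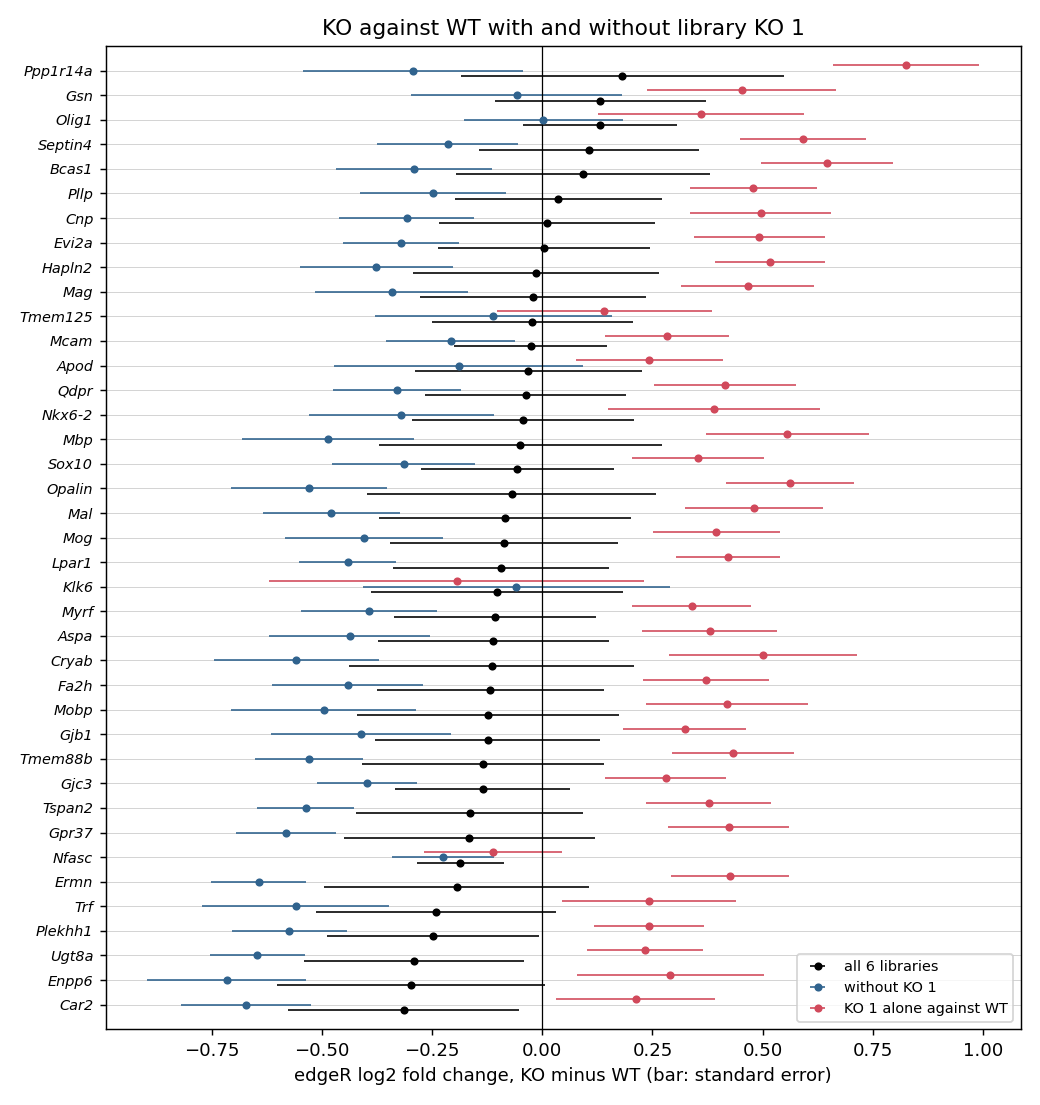
edgeR log2 fold change of KO minus WT for each member (points; bars are standard errors) in 3 fits: all 6 libraries, without KO 1, and KO 1 alone against WT. The values from all libraries lie between −0.31 and 0.18 and those without KO 1 lie below 0 for 38 members, while KO 1 alone lies above 0 for 37.

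The Mbp gene has 2 kinds of transcript. Those from the downstream starts encode the classic myelin proteins, and those from a start far upstream, known as the golli form, are also made by neurons and immune cells. The upstream-start transcript, which begins 79324 bases before the first downstream start (GENCODE M21, GRCm38), had 61.8, 75.7 and 63.5 CPM in WT 1, 2 and 3 and 65.7, 70.3 and 64.9 CPM in KO 1, 2 and 3. Its 6 values overlapped between groups and the highest was 1.23 times the lowest. The 5 transcripts of the downstream starts had 6842, 6589 and 6651 CPM in WT 1, 2 and 3 and 9871, 5670 and 3853 CPM in KO 1, 2 and 3. There the highest library was 2.56 times the lowest, and KO 1 had 2.07 times the mean of KO 2 and KO 3, against 0.973 times for the upstream start. Counts of transcripts that share exons are estimates of how reads divide between them.

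**Figure D3:**
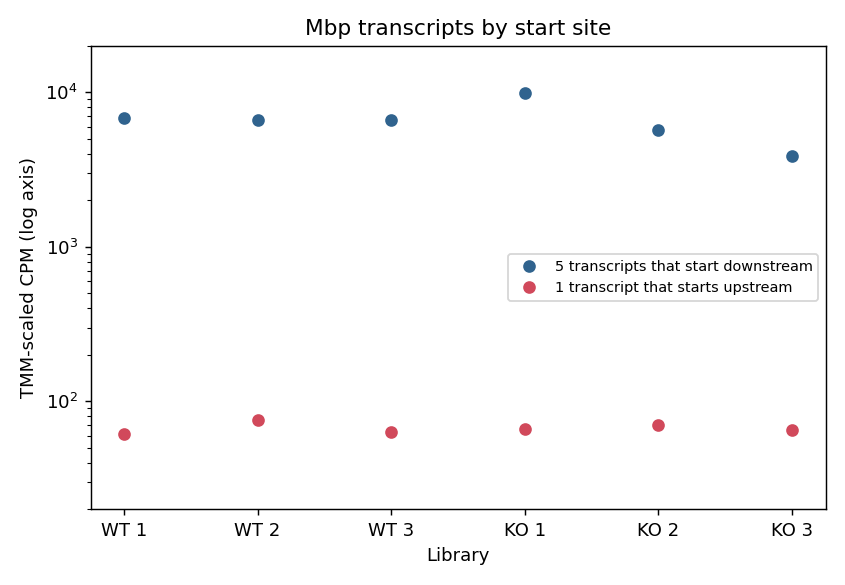
TMM-scaled CPM (log axis) of Mbp transcripts in each library, summed for the 5 transcripts that begin at the downstream starts and shown alone for the 1 that begins upstream. The downstream sum runs from 3853 CPM in KO 3 to 9871 CPM in KO 1, while the upstream transcript stays between 61.8 and 75.7 CPM.

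The share of a gene's counts that each transcript took was compared for 66 transcripts of 23 members. In 13 of them (19.7%), from 8 genes, the groups did not overlap, against 15.4% of 22452 transcripts of all genes, so the members were near the background and nothing is read from single genes. The 8 genes were Mag, Tspan2, Car2, Gsn, Myrf, Mobp, Klk6 and Evi2a. The values of 4 of them, picked after they were seen, are given in this paragraph as a description. An exact permutation test of 3 against 3 libraries cannot go below p = 0.1. For Mag the transcript NM_010758.2 took 36.0, 34.7 and 37.5% in WT 1, 2 and 3 and 48.8, 44.7 and 51.7% in KO 1, 2 and 3. The predicted transcript XM_011250441.2 of Mag took 41.9, 36.8 and 44.8% in WT 1, 2 and 3 and 21.5, 29.1 and 16.1% in KO 1, 2 and 3. The first was above and the second below WT in all 3 KO libraries. In Tspan2 the transcript NM_001243132.1 took 66.6, 62.3 and 63.3% in WT 1, 2 and 3 and 71.7, 77.3 and 73.9% in KO 1, 2 and 3, and in Car2 NM_009801.4 took 20.1, 19.4 and 22.2% in WT 1, 2 and 3 and 24.6, 36.2 and 40.4% in KO 1, 2 and 3. Gsn had 1 transcript with more of its counts in KO, NM_146120.4, with 60.8, 57.7 and 66.7% in WT 1, 2 and 3 and 70.7, 78.8 and 76.1% in KO 1, 2 and 3. In the transcripts named for Tspan2, Car2 and Gsn every KO share was above every WT share.

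Other genes of the lineage were read from lists of markers. Of 42 further genes listed for myelin and oligodendrocytes, 0 were called, and at an unadjusted edgeR p of 0.05 1 was higher and 4 were lower. Of all 15126 genes tested, 1372 (9.07%) had such a p, 406 of them higher and 966 lower. The 42 genes summed to 13469.9, 14867 and 14370.2 CPM in WT 1, 2 and 3 and 19017, 13062 and 10581 CPM in KO 1, 2 and 3. KO 1 was again above and KO 2 and KO 3 below every WT library, while the order within WT was not that of the members. Kif5a, an abundant kinesin gene of the list, is best known from neurons. It had 1724, 3420 and 2749 CPM in WT 1, 2 and 3, the same WT order as the sum. In KO 1, 2 and 3 it had 3791, 2737 and 2125 CPM, with KO 2 and KO 3 inside its WT range. Of the 42, 28 had KO 1 at 1.5 times or more the mean of KO 2 and KO 3, as had 32 of 39 members and 5.03% of all genes. The 2 with the smallest p were Elovl7, a fatty acid elongase, and Car14, a membrane carbonic anhydrase. Both fell from KO 1 to KO 3 as the members did, but KO 1 too was below every WT library. Elovl7 had 85.2, 83.7 and 37.6 CPM in WT 1, 2 and 3 and 25.0, 20.5 and 18.0 CPM in KO 1, 2 and 3, and Car14 had 54.9, 48.0 and 26.3 CPM in WT 1, 2 and 3 and 24.8, 18.3 and 15.7 CPM in KO 1, 2 and 3. Both were lowest in WT 3 among the WT libraries, as was the choroid plexus list, and the part of that tissue in their values was not tested.

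The lists for earlier stages of the lineage did not have KO 1 highest and KO 3 lowest, though the members Enpp6 and Bcas1, which are also made early and are on neither list, did. The 14 genes of committed and newly formed oligodendrocytes summed to 668, 598 and 717 CPM in WT 1, 2 and 3 and 709.7, 613 and 666 CPM in KO 1, 2 and 3. Fyn alone had 127, 118 and 129 CPM of these in WT 1, 2 and 3 and 139, 130 and 140.5 CPM in KO 1, 2 and 3. None of the 14 had KO 1 at 1.5 times or more the mean of KO 2 and KO 3, and none was called. At an unadjusted edgeR p of 0.05, 1 was higher and 1 lower, beside 9.07% of all genes in either direction. The 12 genes of oligodendrocyte precursors summed to 642, 602 and 719 CPM in WT 1, 2 and 3 and 621, 582 and 699.7 CPM in KO 1, 2 and 3. Ptprz1 alone had 240, 202 and 289 CPM of these in WT 1, 2 and 3 and 223, 192 and 282 CPM in KO 1, 2 and 3. Gpr17 is on both lists. Neither sum was checked against other cell types that may make these genes. On the precursor list only Olig2, which mature cells make as well, reached that ratio of 1.5. None of the 12 was called, and 0 were higher and 1 lower at that p, beside the same 9.07% of all genes. Pdgfra, the growth factor receptor that defines precursors, had 69.5, 63.0 and 67.0 CPM in WT 1, 2 and 3 and 57.1, 52.4 and 63.4 CPM in KO 1, 2 and 3, with KO 1 inside the range of the other two. The median ratio of KO 1 to the mean of KO 2 and KO 3 was 1.76 over the members, 1.099 over the newly formed list and 0.977 over the precursor list, as a description with no test.

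Schwann cells, which make myelin in peripheral nerves and also use Mbp, Mag and Sox10, were checked by their own genes. Pmp2, a lipid-binding protein of peripheral myelin, had 0, 2 and 0 counts in WT 1, 2 and 3 and 1, 0 and 0 counts in KO 1, 2 and 3. It was the only 1 of the 7 listed genes at or under 3 counts in every library. Egr2 had between 161 and 630 counts. Pmp22 had 43.4, 48.1 and 41.4 CPM in WT 1, 2 and 3 and 46.8, 38.2 and 28.95 CPM in KO 1, 2 and 3, within KO the order of most members. Of the 7 genes on the Schwann cell list, 6 were tested and 0 called, and only the shared member Sox10 had KO 1 at 1.5 times or more the mean of KO 2 and KO 3. Their part in the member levels was not tested.

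Lists of other cell types moved with the libraries as well. The 10 genes of cortical and septal excitatory neurons summed to 245, 147 and 772 CPM in WT 1, 2 and 3 and 1334, 292 and 134 CPM in KO 1, 2 and 3. In that sum KO 1 was the highest and KO 3 the lowest library too. Gene by gene, KO 1 was above every WT library for 7 of the 10, against 27.9% of all genes tested. KO 3 was below every WT library for 3 of the 10, near the 22.4% of all genes tested. Slc17a6 ran the other way within the KO libraries, with 7.07, 12.8 and 23.7 CPM in KO 1, 2 and 3. The most abundant gene of that list in KO 1, Slc17a7, the vesicular glutamate transporter of cortical neurons, had 15941 counts in KO 1 (939 of the 1334 CPM), 3025 in KO 2 and 231 in KO 3. It had 806, 574 and 7835 counts in WT 1, 2 and 3, and WT 3, the WT library with the most, was not above the other WT libraries in its member sum. The 12 striatal projection neuron genes summed to 706, 9552 and 2748 CPM in WT 1, 2 and 3 and 4351, 5595 and 5553 CPM in KO 1, 2 and 3, an order unlike that of the members. Astrocyte genes (10) summed to 4459, 4125 and 5425 CPM in WT 1, 2 and 3 and 5572, 5053 and 4970.5 CPM in KO 1, 2 and 3, and microglial genes (10) to 486, 581 and 548 CPM in WT 1, 2 and 3 and 665, 720.1 and 599 CPM in KO 1, 2 and 3. Genes of ependyma and motile cilia (12) summed to 319, 226 and 222 CPM in WT 1, 2 and 3 and 152, 141 and 109 CPM in KO 1, 2 and 3. Neuroblast genes (10) summed to 734, 499 and 619 CPM in WT 1, 2 and 3 and 579, 649.8 and 696 CPM in KO 1, 2 and 3, and endothelial genes (10) to 396, 484 and 450.2 CPM in WT 1, 2 and 3 and 459.6, 475 and 399 CPM in KO 1, 2 and 3. Of the list sums in this paragraph, that of the excitatory neurons alone had KO 1 highest and KO 3 lowest of the 6 libraries. Enpp2, which choroid plexus and mature oligodendrocytes both make, had 5864, 5649.8 and 1754 CPM in WT 1, 2 and 3 and 427, 329 and 241 CPM in KO 1, 2 and 3. It is itself on the choroid plexus list and made up most of that list's low sum in each KO library. Within the KO libraries its order was that of the members. How far the tissue taken with each library bears on the members was not tested.

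**Figure D4:**
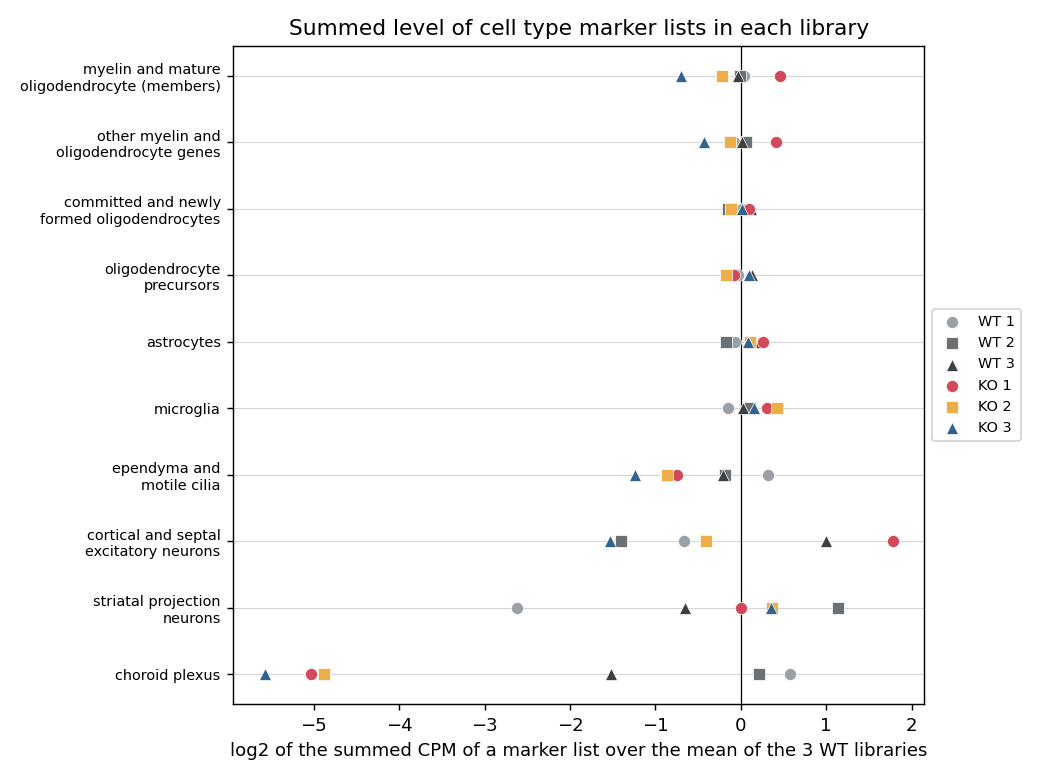
Summed CPM of the members and of 9 marker lists in each library, as log2 over the mean of the 3 WT libraries (horizontal axis; 0 is the WT mean). KO 1 lies right of and KO 3 left of the WT points in the members, in the other myelin genes and in the cortical and septal excitatory neuron list. The precursor and newly formed lists have no such gap, and the choroid plexus list is below WT in all 3 KO libraries.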

How the data were processed

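RNA was extracted with a column kit and sequenced as paired-end 50 bp reads, with depth stated only as an average over libraries, per the labels' protocols. The deposited table gives, for 61481 RefSeq transcripts in 6 libraries, estimated counts and FPKM made by the authors, both units judged from the file headers and values. Per the submitters' processing notes, mm10 was the genome build and limma 3.40.6 was used. Which aligner, counting tool, strand setting and annotation release were used is not given in the sources used here, so genes that share reads with overlapping or near-identical genes are uncertain. Transcript counts were added up within each NCBI gene number and rounded, giving 18614 genes, of which 18489 had a symbol in RefSeq's gene table; the rest held 0.104% to 0.140% of a library's counts. Genes were filtered with filterByExpr (minimum count 10), scaled by TMM and tested with edgeR 4.0.16's quasi-likelihood test (robust, group only) in R 4.3.3, adjusted by Benjamini-Hochberg over all genes tested, at 0.05. DESeq2 1.42.0 and limma-voom (limma 3.58.1) were alternatives, and the test was checked on simulated data. Counts of libraries of 1 group differed beyond sampling noise (chi-square per degree of freedom 21.7 to 95.4).

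The members and all lists were chosen with earlier results of these data known. Values for every library are given for members with a mean of 50 CPM or more, the 3 smallest and 3 largest ratios of KO 1 to KO 2 and KO 3, and the 3 smallest p; other members are given by range. From the 12 other lists up to 2 genes with the smallest p could be named. Pmp2, Egr2, Pmp22, Olig2, Kif5a, Fyn, Ptprz1, Gpr17, Slc17a7, Slc17a6, Enpp2 and the transcripts singled out were named after their values were seen. Transcript shares were compared for genes with at least 2 transcripts of 5% or more each. Alternatives were other scalings, filters and tools, a replicate block, KO 1 alone, and leaving out each library. 1 gene of a marker list is not reported here.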

Additional observations from a re-analysis of the deposited data

How the results depend on the processing

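The count of 0 members called at an adjusted p of 0.05 was the same in edgeR and in all 16 alternatives, DESeq2 and limma-voom among them. Over all genes, the count of 0 became 311 with DESeq2, and leaving out each library in turn it ran from 0 to 137, the latter without WT 3. The members' median log2 fold change of −0.09 became 0.40 with KO 1 alone, and ran from −0.40 without KO 1 to 0.13 without KO 3 when each library was left out. Library totals without TMM moved it to −0.12 and the median of all genes from 0.02 to −0.01. Among the 39 members, 29 changed direction with KO 1 alone, 22 without KO 3, 11 without KO 2 and 7 without KO 1. Leaving out WT 1, WT 2 or WT 3 changed the direction of 6, 5 and 2 members. At most 3 changed direction under the other scalings, filters and tools. With KO 1 alone the log2 fold changes became 0.56 for Mbp, 0.40 for Mog, 0.47 for Mag, 0.21 for Car2, 0.23 for Ugt8a, 0.56 for Opalin, 0.43 for Ermn and 0.14 for Tmem125. Leaving out each library they ran from −0.49 to 0.21 for Mbp, from −0.40 to 0.14 for Mog, from −0.34 to 0.20 for Mag, from −0.53 to 0.19 for Opalin, from −0.29 to 0.49 for Ppp1r14a, from −0.32 to 0.14 for Klk6 and from −0.15 to 0.17 for Tmem125. KO 1's summed level over the mean of KO 2 and KO 3, 1.87, became 1.82 with library totals, 1.70 from mean log2 levels and 1.74 without Mbp. The KO over WT ratio of the sums, 0.951, ran from 0.737 without KO 1 to 1.12 without KO 3; leaving out each library was chosen for this ratio after seeing the data.

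The labels number the libraries 1 to 3 in both groups without saying that a number is shared. Deviations of same-numbered libraries correlated at −0.162, −0.067 and −0.037 over genes, so no pairing by number was seen. Wide differences between libraries of 1 group could hide a weaker pairing, so these values cannot show that there was none. With the replicate number as a block, edgeR called 0 genes and 0 members, 1018 genes had an unadjusted p under 0.05 against 1372 without it, and the members' median was −0.16.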
